A study of Arachis hypogaea with 30 samples.

Results

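Abscisic acid 8'-hydroxylases are the cytochrome P450 enzymes of the CYP707A family that start the breakdown of the stress hormone abscisic acid. The 3 peanut genes described here are Ah01g112000, Ah20g003700 and Ah10g182800, out of 82955 genes in the deposited table, of which 11 carry the annotation K09843 for this enzyme. They were chosen from measured values, as a pair with lower and 1 with higher levels early in salt, so their change from 0 h to 3 h chose them and is described without a test. The same holds for their other changes from 0 h, which use the same 0 h libraries.

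Abscisic acid is made from carotenoids, and the cleavage by 9-cis-epoxycarotenoid dioxygenase (NCED) is the step that limits its synthesis. It is removed by hydroxylation at its 8' position, which leads to phaseic acid, and by attachment of glucose. In Arabidopsis the CYP707A genes set how far the hormone builds up in dry tissue and how fast it disappears on rewetting, and single members differ in when and where they are expressed.

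Whole seedlings of Arachis hypogaea, an allotetraploid legume, were sequenced as poly(A) RNA in 30 libraries, 3 for each of 10 groups. The cultivar HY33 is labelled salt-tolerant and HY9115 salt-sensitive. Seedlings grown in hydroponic boxes were taken in water at 0 h, and after 3, 12, 24 and 48 h in 100 mM NaCl. No later water sample is among the groups, so salt and plant age cannot be told apart at any time, nor can time of day at 3 and 12 h. The replicates are labelled biological, but whether each was a plant or a pool is not given in the sources used here. The p-values therefore rest on the spread among these libraries, which may be technical. Library totals ran from 13072324 to 18788677 counts.

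Ah01g112000 lies on the plus strand of chromosome 1 (12990082 to 12993391, exonic length 2462 bases). Ah20g003700 lies on the minus strand of chromosome 20 (320130 to 323054, 1887 bases) and Ah10g182800 on the plus strand of chromosome 10 (39839675 to 39843734, 2241 bases). Coordinates are those of the deposited table, whose genome build is not given in the sources used here. No annotated gene overlaps any of the 3. The nearest neighbour is Ah10g182900, on the opposite strand 1729 bases beyond the end of Ah10g182800. All 3 genes are annotated with abscisic acid catabolism and 8'-hydroxylase activity. Ah01g112000 and Ah20g003700 also share terms for fruit ripening and for responses to abscisic acid and to water deprivation, which Ah10g182800 lacks.

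The first question was how each gene stood across the 10 groups. Levels are given as FPKM, the fragments counted per length of exon and per library total, which are per length and so can be compared between genes. Ah01g112000 was the most abundant of the family in HY33 in water, with 37.34, 41.54 and 44.93 FPKM, and had 25.69, 26.13 and 28.13 FPKM in HY9115 in water. After 3 h in salt its libraries held 6.24, 4.59 and 4.86 FPKM in HY33. In HY9115 they held 6.81, 7.96 and 6.94 FPKM. The 3 h libraries were the lowest of each cultivar, and HY33 went from the higher to the lower cultivar between these times. The fitted log2 change from 0 h was -3.01 ± 0.11 (SE), or 8.07-fold lower, in HY33 and -1.86 ± 0.11, or 3.64-fold lower, in HY9115.

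Ah01g112000 stood higher at the later times than at 3 h. At 12 h it was at 22.07, 26.68 and 20.75 FPKM in HY33 and 15.07, 16.15 and 16.00 in HY9115. At 24 h it was at 19.91, 18.43 and 21.38 FPKM in HY33 and 13.09, 15.69 and 11.36 in HY9115. At 48 h it was at 15.23, 18.97 and 17.10 FPKM in HY33 and 21.10, 18.68 and 19.48 in HY9115. At 12 and 24 h every HY33 library was above every HY9115 library, while at 48 h the cultivars overlapped. The log2 changes from 0 h at 12, 24 and 48 h were -0.73 ± 0.10, -0.93 ± 0.10 and -0.90 ± 0.10 in HY33. In HY9115 they were -0.64 ± 0.10, -0.93 ± 0.10 and -0.17 ± 0.10. In the order of group means, HY33 in water stood apart above all others and the 2 groups at 3 h stood apart below, whereas neighbours among the 7 groups between overlapped.

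Ah20g003700 had nearly the same levels and course. In water its libraries held 36.44, 40.87 and 40.79 FPKM in HY33 and 26.10, 26.39 and 24.61 in HY9115. At 3 h they held 7.86, 6.37 and 4.88 FPKM in HY33 and 8.75, 8.80 and 9.72 in HY9115. Again the 3 h libraries were the lowest of each cultivar, with HY33 below HY9115 and no overlap. The log2 change from 0 h to 3 h was -2.67 ± 0.11 (6.35-fold lower) in HY33 and -1.48 ± 0.11 (2.79-fold lower) in HY9115.

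At 12 h Ah20g003700 was at 30.17, 33.24 and 28.00 FPKM in HY33 and 19.27, 21.27 and 17.92 in HY9115. At 24 h it was at 25.53, 24.37 and 28.57 FPKM in HY33 and 15.77, 18.75 and 14.13 in HY9115, and at 48 h at 16.03, 19.08 and 18.31 in HY33 and 17.13, 18.04 and 18.59 in HY9115. It came closer to its level in water than Ah01g112000 did at 12 and 24 h, with log2 changes from 0 h of -0.27 ± 0.10 and -0.47 ± 0.10 in HY33 and -0.28 ± 0.10 and -0.60 ± 0.11 in HY9115. At 48 h the changes were -0.77 ± 0.10 in HY33 and -0.26 ± 0.10 in HY9115. The order of its group means ran from HY33 in water, which stood apart, through HY33 at 12 and 24 h and HY9115 in water, whose neighbours overlapped. Below a gap came HY9115 at 12 and 48 h, HY33 at 48 h and HY9115 at 24 h, again with overlap, and then the 3 h groups.

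Ah10g182800 did the reverse. It was scarce in water, at 1.63, 2.03 and 2.10 FPKM in HY33 and 1.73, 1.61 and 1.13 in HY9115, which were 39 to 83 counts a library. At 3 h its libraries held 18.16, 13.27 and 15.20 FPKM in HY33 and 20.52, 21.78 and 27.71 in HY9115. These were its highest libraries in each cultivar, and all HY9115 libraries were above all HY33 libraries. The log2 change was 2.98 ± 0.16 (7.87-fold higher) in HY33 and 3.98 ± 0.16 (15.8-fold higher) in HY9115.

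Most of this peak was gone by 12 h, but Ah10g182800 stayed above its level in water. It was at 6.80, 5.28 and 6.55 FPKM in HY33 and 8.75, 7.14 and 5.39 in HY9115 at 12 h. At 24 h it was at 6.09, 6.34 and 6.26 FPKM in HY33 and 5.01, 5.10 and 5.53 in HY9115, and at 48 h at 4.13, 5.02 and 4.79 in HY33 and 6.30, 5.12 and 6.44 in HY9115. The log2 changes from 0 h at 12, 24 and 48 h were 1.79 ± 0.17, 1.81 ± 0.17 and 1.64 ± 0.17 in HY33, and 2.37 ± 0.17, 1.86 ± 0.18 and 2.25 ± 0.17 in HY9115. Its order was HY9115 at 3 h, then HY33 at 3 h, each apart from the next, then 6 overlapping later groups, and below them the overlapping groups in water.

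**Figure D1:**
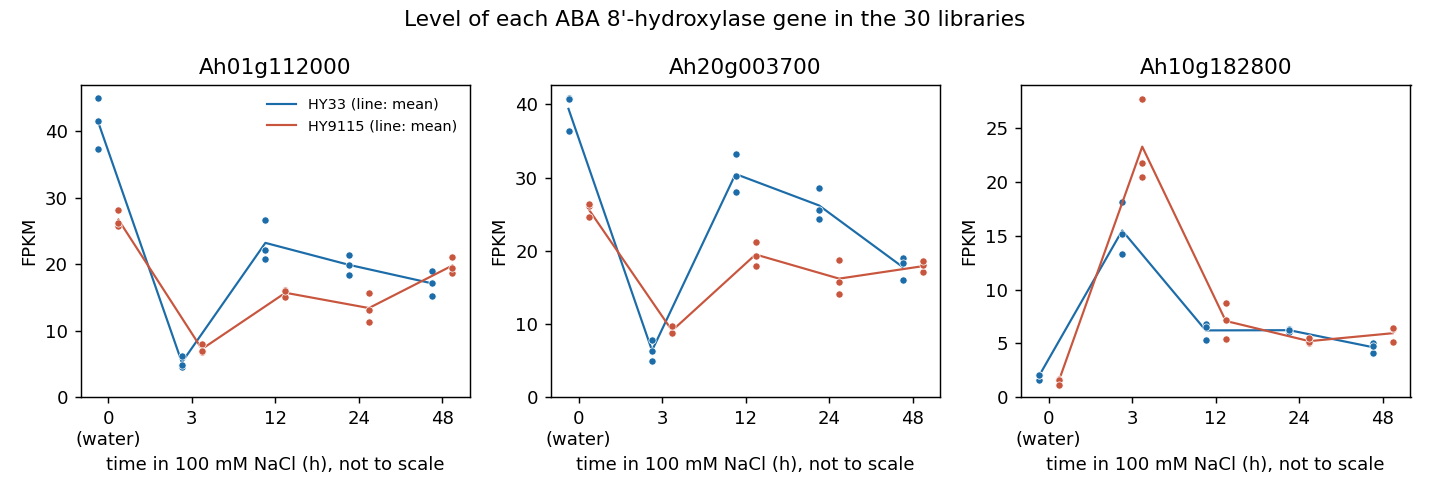
Level (FPKM, vertical axis from 0) of Ah01g112000, Ah20g003700 and Ah10g182800 at 0 h in water and after 3, 12, 24 and 48 h in 100 mM NaCl, with 1 point per library, lines through the means of 3 libraries, HY33 in blue and HY9115 in red. The first 2 genes are lowest at 3 h (group means of 5.23 to 9.09 FPKM) and Ah10g182800 is highest there (15.5 and 23.3 FPKM).

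For all 3 genes and at each salt time the libraries did not overlap those of the same cultivar in water. Among all 42311 genes tested, the libraries did not overlap in 51.2%, 63.3%, 62.8% and 73.7% at 3, 12, 24 and 48 h in HY33, and in 52.4%, 61.5%, 59.7% and 72.1% in HY9115. The choice of the genes fixes their part of this at 3 h, so nothing is read from it.

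The seedlings are whole plants, so fewer cells of a type and less RNA per cell cannot be told apart. Organ markers moved over the same times. The 60 green shoot markers (RuBisCO small subunit and light-harvesting proteins, 14 with no reads) summed to 30400 to 31200 FPKM in HY33 in water, 22700 to 25700 at 3 h and 4250 to 4550 at 48 h. In HY9115 they summed to 23700 to 26800, 12200 to 13900 and 3680 to 4080 FPKM. The 163 root markers (33 with no reads) summed to 2370 to 2540 FPKM in water and 1800 to 1820 at 3 h in HY33, and to 2170 to 2240 and 1640 to 1740 in HY9115. The 46 cotyledon and seed reserve markers (3 with no reads) summed to 671 to 756 FPKM in water and 630 to 668 at 3 h in HY33, and to 1620 to 2060 and 1370 to 1460 in HY9115. The part of organ make-up in the levels of the 3 genes was not tested.

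Next, the 3 genes were set among the other 8 annotated copies. In water they held nearly all of the family's transcript, 92.2% ± 0.153 (SD, n = 3) of the summed FPKM in HY33 and 92.3% ± 1.46 in HY9115. The family's sum was 89.6 ± 7.09 FPKM in HY33 in water and 37.3 ± 4.89 at 3 h. In HY9115 it was 58.4 ± 1.24 FPKM in water and 51.1 ± 5.64 at 3 h. The 3 h libraries of HY33 were thus far below those in water, while HY9115, with libraries of 57.4 to 59.8 in water and 46.2 to 57.2 at 3 h, stood much closer. Later sums were 72.1 ± 4.44, 62.9 ± 3.88 and 48.5 ± 4.51 FPKM at 12, 24 and 48 h in HY33, and 51.1 ± 4.40, 42.6 ± 4.71 and 53.2 ± 1.63 in HY9115.

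The make-up of the sum turned over at 3 h in both cultivars. The choice of the genes by their change at 3 h in part fixes this turnover and the change of the sum, so both are descriptions. Ah01g112000 made up 46.1% ± 0.907 of it in water and 14.0% ± 0.611 at 3 h in HY33, and 45.7% ± 2.51 and 14.3% ± 1.99 in HY9115. Ah10g182800 made up 2.14% ± 0.127 in water and 41.6% ± 2.91 at 3 h in HY33, and 2.55% ± 0.548 and 45.5% ± 2.54 in HY9115. At 12 to 48 h its share lay between 6.88% and 17.0% in all libraries of both cultivars. The ratio of Ah01g112000 to Ah20g003700 stayed within 0.714 to 1.23 in all 30 libraries. It was 1.05 ± 0.0462 in water, 0.759 ± 0.0387 at 12 h and 0.959 ± 0.0311 at 48 h in HY33, and 1.04 ± 0.0884, 0.811 ± 0.0717 and 1.11 ± 0.107 in HY9115, so that in both cultivars Ah01g112000 was the lower gene of the pair at 12 h in every library.

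**Figure D2:**
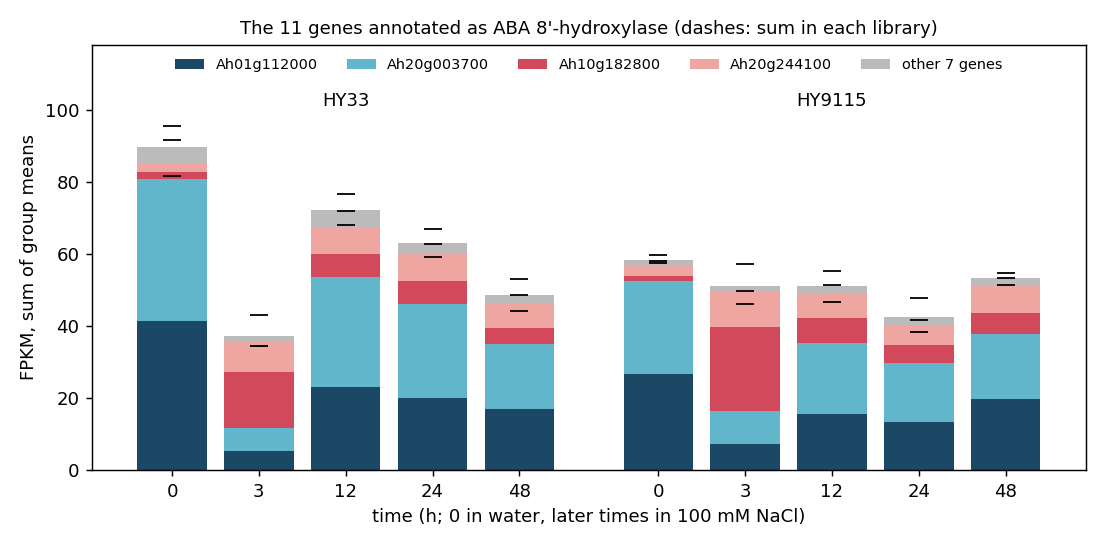
Summed FPKM of the 11 genes annotated as abscisic acid 8'-hydroxylase in each group, as stacked bars of group means, with a dash for the sum in each library, HY33 on the left and HY9115 on the right. Ah01g112000 and Ah20g003700 (blues) fill most of each bar in water, and Ah10g182800 (red) is the largest segment at 3 h in both cultivars, while the whole bar is 89.6 FPKM in water and 37.3 at 3 h in HY33 against 58.4 and 51.1 in HY9115.

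Of the other 8 copies 3 passed the filter on low values. Ah20g244100 rose at 3 h, from 2.19, 2.87 and 2.82 to 8.80, 8.76 and 7.99 FPKM in HY33 and from 2.24, 3.32 and 2.60 to 9.01, 9.97 and 11.71 in HY9115. The words rose and fell are used where edgeR's quasi-likelihood test passed 2 limits, a p under 0.05 after Benjamini-Hochberg adjustment and a log2 difference of 1 or more. For Ah20g244100 the log2 changes were 1.66 ± 0.14 (adjusted p = 5.5e-12) in HY33 and 1.93 ± 0.14 (adjusted p = 8.2e-14) in HY9115. In HY33 it stood at about the same log2 change at 12, 24 and 48 h, with 1.58 ± 0.14, 1.68 ± 0.14 and 1.66 ± 0.14. Its mean FPKM was highest at 3 h in both cultivars, as for Ah10g182800. The means at 0, 3, 12, 24 and 48 h were 2.63, 8.52, 7.33, 7.76 and 6.45 FPKM in HY33, where the 3 h and 24 h libraries overlapped. In HY9115 they were 2.72, 10.2, 6.49, 5.12 and 7.54 FPKM. Ah10g182800 was below Ah20g244100 in water, at 0.732 ± 0.0217 of its level in HY33, and above it at 3 h, at 1.82 ± 0.283 in HY33 and 2.28 ± 0.0950 times its level in HY9115.

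Ah10g425700 and Ah20g522400 carry terms for release of seed from dormancy and responses to red light. Both fell at 3 h in HY33, with log2 changes of -1.50 ± 0.25 (edgeR adjusted p = 5.6e-06) and -1.63 ± 0.43 (adjusted p = 0.0022), with group means of 2.77 and 0.910 FPKM in water. In HY9115 they were at -0.06 ± 0.31 and -0.13 ± 0.45, with 0.690 and 0.447 FPKM in water. The other 5 copies did not reach a group mean of 1 FPKM. Since the 3 genes were taken out of the family by their change at 3 h, counts over the remaining copies carry no weight: 1 of 3 rose in each cultivar, where 6.61% of all tested genes rose in HY33 and 8.27% in HY9115, and 2 of 3 fell in HY33 (7.45% of all tested genes) and 0 in HY9115 (6.43%), where Ah10g425700 and Ah20g522400 had adjusted p-values of 0.90 and 0.85.

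The second question was whether the cultivars differed. In FPKM the libraries of the cultivars did not overlap at 0, 3, 12 and 24 h for Ah01g112000 and Ah20g003700, and at 3, 24 and 48 h for Ah10g182800. At 48 h the nearest libraries of Ah10g182800 were at 5.02 FPKM in HY33 and 5.12 in HY9115. Their TMM factors were 0.8219 and 0.8873, so TMM scaling does not keep that gap. Among all tested genes the libraries of the cultivars did not overlap in FPKM in 38.9%, 35.7%, 26.8%, 44.8% and 48.4% at 0, 3, 12, 24 and 48 h. This is another contrast than the change that chose the genes, but at 0 h and 3 h it rests on the same libraries, so its p-values at those times are not independent of the choice. Those at 12, 24 and 48 h come from other libraries. In water both abundant genes were higher in HY33 than in HY9115 by about the same factor, 1.56-fold for Ah01g112000 (log2 0.64 ± 0.10, edgeR adjusted p = 6.8e-06) and 1.54-fold for Ah20g003700 (0.63 ± 0.10, adjusted p = 1.3e-05). Ah10g182800 gave 0.38 ± 0.20 (adjusted p = 0.18), with a 95% interval from -0.03 to 0.79. In this comparison 2 of 3 genes had an adjusted p under 0.05, against 24.9% of all tested genes, and 0 of 3 also reached a log2 difference of 1, against 5.71%.

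At 3 h the sign was the other way, and all 3 genes were lower in HY33. The differences were -0.51 ± 0.12 for Ah01g112000 (adjusted p = 0.002), -0.56 ± 0.12 for Ah20g003700 (adjusted p = 0.00075) and -0.62 ± 0.12 for Ah10g182800 (adjusted p = 0.00022). All 3 had an edgeR adjusted p under 0.05, against 22.4% of tested genes, and 0 reached a log2 difference of 1, against 5.85%. The 3 h libraries also chose the genes, so nothing is read from these counts. Whether the step from 0 h to 3 h differed between the cultivars was not tested, because that step chose the genes.

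At 12 and 24 h the abundant pair was higher in HY33 again. At 12 h the differences were 0.55 ± 0.11 for Ah01g112000 (edgeR adjusted p = 0.00025) and 0.64 ± 0.10 for Ah20g003700 (adjusted p = 2.9e-05). At 24 h they were 0.64 ± 0.11 (adjusted p = 2e-05) and 0.76 ± 0.11 (adjusted p = 1.3e-06), the latter 1.69-fold. Ah10g182800 gave -0.20 ± 0.14 (adjusted p = 0.39, interval -0.50 to 0.09) at 12 h and 0.33 ± 0.14 (adjusted p = 0.086, interval 0.03 to 0.62) at 24 h. So 2 of 3 genes had an adjusted p under 0.05 at each time, against 14.6% of tested genes at 12 h and 29.4% at 24 h, and 0 reached a log2 difference of 1, against 3.76% and 5.16%.

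At 48 h no difference passed, with 0 of 3 genes at an edgeR adjusted p under 0.05 against 40.3% of all tested genes, and 0 past both limits against 9.02%. DESeq2 also gave 0 of 3, and 0 of 3 had an unadjusted p under 0.05 in edgeR. The 95% intervals ran from -0.29 to 0.13 for Ah01g112000, from -0.10 to 0.33 for Ah20g003700 and from -0.53 to 0.07 for Ah10g182800. With libraries scaled to an equal sum of counts per length (TPM scaling), which moved the median of all genes by -0.231 (from 0.0479 to -0.183), Ah01g112000 was at -0.32 (adjusted p = 0.028) and Ah10g182800 at -0.46 (adjusted p = 0.026) at 48 h.

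**Figure D3:**
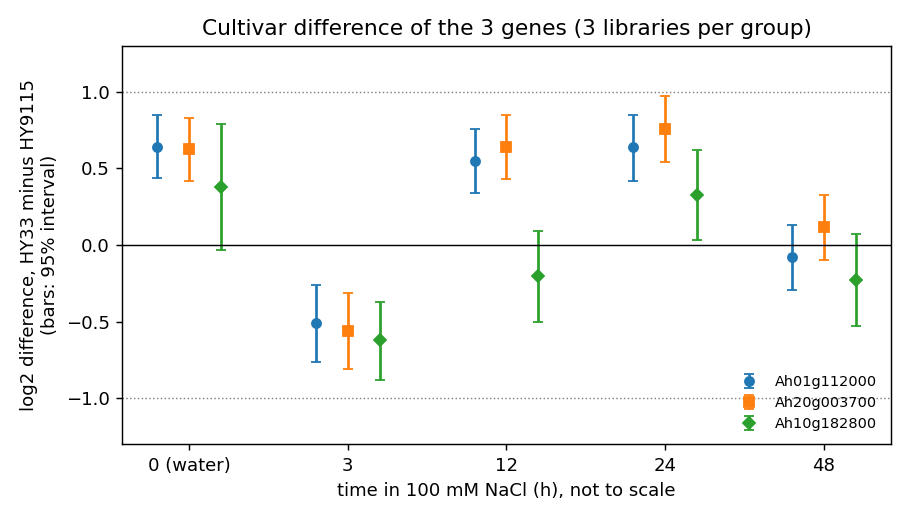
Log2 difference of HY33 minus HY9115 (vertical axis) at each time for the 3 genes, with 95% intervals from the fit, 3 libraries per group, and dotted lines at differences of 1 in either direction. Ah01g112000 and Ah20g003700 lie between 0.55 and 0.76 at 0, 12 and 24 h, below 0 at 3 h and near 0 at 48 h, and no point reaches a dotted line.

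The third question was how the genes moved among the later salt times, which share no library with the step that chose them. In HY33 the changes were small. From 12 h to 24 h they were -0.20 ± 0.10 for Ah01g112000, -0.20 ± 0.10 for Ah20g003700 and 0.02 ± 0.14 for Ah10g182800 (edgeR adjusted p = 0.14, 0.13 and 0.92), so 0 of 3 passed on the adjusted p against 32.1% of tested genes, and likewise 0 by DESeq2 and 0 on the unadjusted p. From 24 h to 48 h they were 0.04 ± 0.10, -0.30 ± 0.10 and -0.17 ± 0.15, where 1 of 3 passed (Ah20g003700, adjusted p = 0.019) against 46.2%. Without HY33 24 h replicate 3 or 48 h replicate 1 that step was -0.24 (adjusted p = 0.11 and 0.10). From 12 h to 48 h Ah20g003700 was lower by a log2 difference of -0.50 ± 0.10 (adjusted p = 0.00012), and Ah01g112000 and Ah10g182800 stood at -0.16 ± 0.10 and -0.14 ± 0.15, so 1 of 3 passed against 57.9%. None of the 3 genes reached a log2 difference of 1 in these steps, against 6.19%, 12.8% and 20.2% of tested genes.

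The HY33 values at 48 h depended on how libraries were scaled. Between 24 h and 48 h the median log2 change over all genes was -0.0128 with TMM factors, -0.268 when libraries were scaled to their totals and -0.354 with TPM scaling. With TPM scaling the step from 12 h to 48 h was -0.59 for Ah01g112000 (adjusted p = 5.3e-05), -0.93 for Ah20g003700 and -0.57 for Ah10g182800 (adjusted p = 0.0041), where the median over all genes was -0.453, and the step of Ah01g112000 from 24 h to 48 h turned from 0.04 to -0.31.

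In HY9115 all 3 genes were lower at 24 h than at 12 h and higher again at 48 h, by small amounts. The first step was -0.29 ± 0.11 for Ah01g112000 (edgeR adjusted p = 0.039), -0.32 ± 0.11 for Ah20g003700 (adjusted p = 0.022) and -0.51 ± 0.14 for Ah10g182800 (adjusted p = 0.0067), with 3 of 3 past the adjusted p against 30.2% of tested genes. Single libraries decided these p-values. Ah01g112000 was at -0.20 (adjusted p = 0.21) and Ah20g003700 at -0.25 (adjusted p = 0.12) without HY9115 24 h replicate 3, and both also missed the limit without 12 h replicate 2 or 24 h replicate 1, as Ah01g112000 did without 12 h replicate 3. Ah10g182800 was at -0.34 (adjusted p = 0.095) without 12 h replicate 1. TPM scaling gave adjusted p-values of 0.31, 0.19 and 0.065. The later step was 0.76 ± 0.11 for Ah01g112000 (adjusted p = 2.9e-07), 0.34 ± 0.11 for Ah20g003700 (adjusted p = 0.0082) and 0.39 ± 0.15 for Ah10g182800 (adjusted p = 0.025), with 3 of 3 against 51.6%. Only the step of Ah01g112000 passed under all alternatives run. It ranged from 0.48 to 0.79 over the other settings and from 0.67 to 0.90 with 1 library left out. With total counts the steps of Ah20g003700 and Ah10g182800 were 0.14 and 0.19 (edgeR adjusted p = 0.28 and 0.30). Without HY9115 24 h replicate 3 Ah20g003700 was at 0.26 (adjusted p = 0.063). Ah10g182800 was at 0.34 to 0.38 (adjusted p from 0.055 to 0.089) without 24 h replicate 1 or 2, or 48 h replicate 1 or 3.

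From 12 h to 48 h in HY9115 Ah01g112000 was higher by 0.47 ± 0.11 (edgeR adjusted p = 0.00038), and Ah20g003700 and Ah10g182800 stood at 0.02 ± 0.11 and -0.12 ± 0.14, so 1 of 3 passed against 47.1%. None of these steps in HY9115 reached a log2 difference of 1 for any of the 3 genes, against 5.6%, 18.2% and 17% of tested genes for 12 to 24 h, 24 to 48 h and 12 to 48 h.

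The cultivars' steps were compared directly as interactions. From 24 h to 48 h the abundant pair moved differently in HY33 than in HY9115, by a log2 difference of -0.72 ± 0.15 for Ah01g112000 (edgeR adjusted p = 0.00051) and -0.64 ± 0.15 for Ah20g003700 (adjusted p = 0.002). For Ah10g182800 it was -0.56 ± 0.21 (adjusted p = 0.055, interval -0.98 to -0.14). So 2 of 3 genes passed on the adjusted p against 19.7% of tested genes, and 0 past a log2 difference of 1 against 7.15%. From 12 h to 48 h the differences were -0.63 ± 0.15 (adjusted p = 0.0017) and -0.52 ± 0.15 (adjusted p = 0.0087) for the pair and -0.02 ± 0.21 (adjusted p = 0.96) for Ah10g182800, so 2 of 3 passed against 28.2%, with 0 past a log2 difference of 1 against 7.4%. From 12 h to 24 h they were 0.09 ± 0.15, 0.12 ± 0.15 and 0.53 ± 0.20 (adjusted p = 0.72, 0.62 and 0.058), so 0 of 3 passed against 21.9% (1 by DESeq2, Ah10g182800 at an adjusted p of 0.049, and 1 on the unadjusted p of edgeR), and 0 past a log2 difference of 1 against 4.96%.

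Other steps of the hormone's pathway were followed in the same tests. Among the 5 annotated NCED genes the level was set by 1 gene, Ah07g301800 on chromosome 7 (74198285 to 74201886), which rose at 3 h. It was at 12.57, 13.23 and 15.02 FPKM in water and 33.57, 38.73 and 32.67 at 3 h in HY33, and at 6.56, 6.47 and 6.85 and then 20.65, 21.62 and 23.55 in HY9115. The libraries of water and 3 h did not overlap in either cultivar. The log2 changes were 1.34 ± 0.09 (edgeR adjusted p = 4.9e-14) and 1.74 ± 0.10 (adjusted p = 1.8e-16). Ah07g301800 was higher in HY33 than in HY9115 both in water (1.05 ± 0.10, adjusted p = 3.1e-10) and at 3 h (0.64 ± 0.09, adjusted p = 1.3e-06), a time at which the 3 hydroxylase genes were lower in HY33. It was at 25.5 ± 0.506 FPKM in HY33 and 11.4 ± 1.69 in HY9115 at 12 h, and at 7.57 ± 0.217 and 8.75 ± 0.969 at 48 h.

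In HY33 the summed NCED level went from 14.9 ± 1.37 FPKM in water to 38.7 ± 3.40 at 3 h, when the summed hydroxylase level went from 89.6 ± 7.09 to 37.3 ± 4.89. In HY9115 the NCED sum went from 7.78 ± 0.165 to 23.8 ± 1.45 FPKM, when the hydroxylase sum went from 58.4 ± 1.24 to 51.1 ± 5.64. These are levels of RNA, and neither the hormone nor the enzymes were measured here. The choice of the 3 genes in part fixes how the hydroxylase sums differ between 0 h and 3 h.

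**Figure D4:**
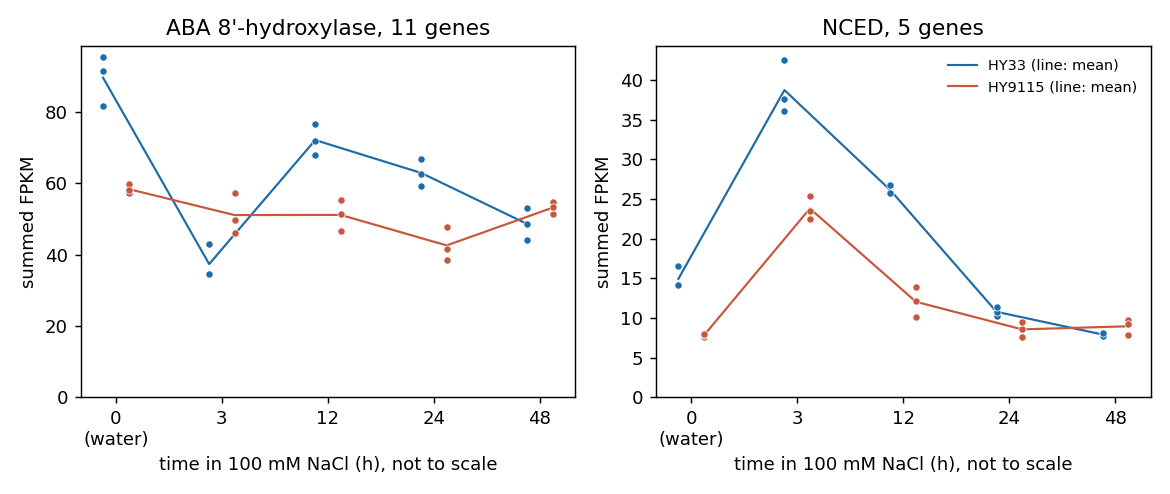
Summed FPKM (vertical axes from 0, on different scales) of the 11 abscisic acid 8'-hydroxylase genes on the left and the 5 NCED genes on the right, at 0 h in water and after 3, 12, 24 and 48 h in 100 mM NaCl, with a point per library and lines through the means of 3 libraries. The hydroxylase sum of HY33 is lowest at 3 h (37.3 FPKM), where the NCED sum is highest in both cultivars (38.7 and 23.8 FPKM). That of HY9115 is 51.1 FPKM at 3 h and lowest at 24 h (42.6 FPKM).

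Upstream and downstream of NCED little passed at 3 h. Of the 6 tested zeaxanthin epoxidase genes, which make the epoxycarotenoid precursors, 0 rose or fell in either cultivar at 3 h, as was the case for the single xanthoxin dehydrogenase gene and the 2 tested abscisic-aldehyde oxidase genes, which complete the synthesis (14.1% of all tested genes passed in HY33 and 14.7% in HY9115). DESeq2 gave the same counts. On the adjusted p alone, and as many on the unadjusted p, 2 epoxidase genes were lower in HY9115, Ah01g118600 (-0.53 ± 0.08, edgeR adjusted p = 5e-07) and Ah11g125200 (-0.48 ± 0.09, adjusted p = 6.2e-05), and the dehydrogenase Ah20g503100 was lower in HY33 (-0.72 ± 0.13, adjusted p = 3.7e-05). The share of all tested genes past the adjusted p alone at 3 h is not given here, so these counts carry no weight. The list for the glucose transfer that also removes the hormone (K14595) held 0 genes of the table used here.

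Among the signalling genes, receptors that passed both limits at 3 h fell and phosphatases that passed both rose, while few kinases and ABF factors passed. Of the 20 tested PYR/PYL receptor genes 10 fell in HY33 and 8 in HY9115, against 7.45% and 6.43% of all tested genes, among them Ah20g189000 at -2.50 ± 0.22 (edgeR adjusted p = 1.6e-11) and -2.07 ± 0.22 (adjusted p = 1.8e-09). The list's median log2 change was -0.94 and -0.88, where the median of all genes was 0 in each cultivar. In HY33 other receptors passed on the edgeR adjusted p alone, in both directions. Ah16g156600 (0.67 ± 0.11, adjusted p = 6.5e-06), Ah06g366300 (0.50 ± 0.09), Ah06g024000 (0.47 ± 0.12) and Ah08g341600 (0.25 ± 0.09) were higher. Ah01g084200 (-0.84 ± 0.16, adjusted p = 8.2e-05), Ah08g058500 (-0.56 ± 0.15) and Ah17g415800 (-0.45 ± 0.13) were lower. The counts of receptors weigh each gene alike, whatever its level, and are no measure of the receptors' summed RNA. In HY33 the receptors with the highest means in water were Ah12g040400 (79.1 FPKM, then 90.5 at 3 h), Ah08g341600 (61.8, then 74.9) and Ah17g096700 (59.3, then 22.2). Of these only Ah17g096700 fell, while Ah20g189000, which also fell, stood at 7.98 FPKM in water. PP2C phosphatases hold the pathway off, and the hormone induces transcription of their genes. Of the 15 tested PP2C phosphatase genes 10 rose in each cultivar, against 6.61% and 8.27% of all tested genes. The list medians were 1.70 in HY33 and 2.24 in HY9115. Ah03g479600 rose by 3.38 ± 0.12 and 3.97 ± 0.12 in HY33 and HY9115. Of the 24 tested SnRK2 kinase genes 2 rose in each cultivar, a share near those 6.61% and 8.27%, among them Ah01g169500 (1.58 ± 0.10 and 1.14 ± 0.10). Of the 17 tested ABF factor genes, which act on target promoters, 2 rose and 1 fell in HY33 and 3 rose and 1 fell in HY9115, counts too small to set apart from the 6.61% higher and 7.45% lower of all tested genes in HY33 and the 8.27% and 6.43% in HY9115, with Ah08g045900 at 1.43 ± 0.07 and 1.67 ± 0.07. The K numbers pool related kinases and factors, so some members of the last 2 lists may act outside abscisic acid signalling.

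Finally, the genes most like each member were sought among 27350 other annotated genes, by Pearson's r of log2(FPKM + 1) over the 10 group means. These means come from the same libraries, so r is a description. The gene most like Ah01g112000 was Ah20g003700 and the reverse (r = 0.972, Spearman's rho = 0.927), a likeness the choice of the pair in part fixes. Next to Ah01g112000 came Ah20g227000, annotated as a transcription factor (r = 0.961), and Ah18g096400 (r = 0.960), and next to Ah20g003700 came Ah03g025800, an ascorbate peroxidase that removes hydrogen peroxide (r = 0.959), and Ah01g126800, a metal transporting ATPase (r = 0.951). The genes most like Ah10g182800 were Ah19g566500, a protein kinase (r = 0.975), Ah12g011100, a CoA ligase of alpha-linolenic acid metabolism (r = 0.974), and Ah08g160300, annotated with regulation of the circadian rhythm (r = 0.973). Ah20g244100 ranked at position 86 for Ah10g182800 (r = 0.901). Ah01g112000 and Ah10g182800 ran against each other (r = -0.883, rho = -0.709), an opposition that the choice of the genes also in part fixes.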

How the data were processed

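Poly(A) RNA of whole seedlings was sequenced as paired reads in 30 libraries, per the labels' protocols. Groups and replicate numbers came from the sample titles. The submitters' processing notes name HISAT2 2.2.1 and HTSeq 0.6.1, besides cutadapt 1.9.1 and DESeq2. The build, the annotation and whether strand was used are not stated by those sources. Antisense genes therefore cannot be separated, and near-identical subgenome copies may share or lose reads. The authors' deposited values are unnormalised read counts per gene, and FPKM that equal these counts per exonic length and library total in 100% of values (tolerance 0.005).

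Counts were tested with edgeR 4.0.16 (R 4.3.3) after TMM scaling (factors from 0.804 to 1.11). A single model held every library, with 1 term for each of the 10 groups, and used glmQLFit and glmQLFTest. Benjamini-Hochberg adjustment ran over 42311 genes, those reaching 1 FPKM in 3 or more libraries. A call needed an adjusted p under 0.05 and a log2 difference of at least 1. Standard errors are the log2 difference over the root of F. The code was tested on simulated counts. DESeq2 1.42.0, limma 3.58.1 on log2(FPKM + 1) and log2(FPKM + 0.1), other scalings, filters, a replicate block and leaving out libraries were alternatives.

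Members and lists were chosen with earlier results of these data known. Named are the 3 genes, other K09843 genes reaching a group mean of 1 FPKM, up to 2 genes per pathway list called at 3 h in both cultivars (of which the text gives some), the 3 most alike genes per member, and neighbours. Ah01g118600, Ah11g125200, Ah20g503100, Ah05g031200, Ah15g031200 and copies with few reads were named after their values were seen. So were the receptor genes given on the adjusted p alone or for their level. Replicates of a group differed by more than counting error (chi-square over its degrees of freedom from 2.08 to 8.56). No sequence is printed, since none of the sources used here pairs one with these gene names.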

Additional observations from a re-analysis of the deposited data

Results flagged for a closer look

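In 4 of 9 tests of a difference between the cultivars' later steps the adjusted p of edgeR was under 0.05, all for the abundant pair and all over steps that end at 48 h. Among all tested genes 21.9%, 19.7% and 28.2% passed on it for 12 to 24 h, 24 to 48 h and 12 to 48 h. For the change from 24 h to 48 h, HY33 minus HY9115 was -0.72 for Ah01g112000 and -0.64 for Ah20g003700 on the log2 scale. For the change from 12 h to 48 h it was -0.63 and -0.52. Both pairs of values use the same 48 h libraries, so they are not separate evidence. The 4 differences kept their direction and an adjusted p under 0.05 under every alternative run, with values from -0.91 to -0.51 over the other settings and from -0.86 to -0.46 with 1 library left out. Green shoot markers stood at 13800 to 14800 FPKM at 24 h and 4250 to 4550 at 48 h in HY33, and at 14400 to 16100 and 3680 to 4080 in HY9115. Root markers stood at 1880 to 1970 and 1660 to 1670 FPKM in HY33, and at 1730 to 1830 and 1470 to 1660 in HY9115. From 24 h to 48 h cotyledon and seed reserve markers were lower in HY33 (870 to 912, then 720 to 808 FPKM) and higher in HY9115 (686 to 749, then 831 to 859). At 12 h these markers stood at 1140 to 1340 FPKM in HY33 and 1080 to 1220 in HY9115. Over 12 h to 48 h they were thus lower in both cultivars. The part of organ make-up in these differences was not tested.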

How the results depend on the processing

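Of 42 tests on the 3 genes, 22 had an adjusted p under 0.05, where 14.6% to 57.9% of all tested genes did, depending on the comparison. Of the 42, 0 reached a log2 difference of 1, under any alternative run, where 3.76% to 20.2% of all tested genes passed both limits in the main fit. The 42 tests share libraries, so they are not separate evidence. Over 726 repeats 631 kept their direction and side of the adjusted p limit, 36 lost and 28 gained a pass, and 31 changed sign, of which 30 were short of the limit both ways. The 9 cultivar differences that passed, and the 4 interactions of the abundant pair, kept direction and side throughout. Cultivar differences at 0 h and 3 h rest on the libraries that chose the genes, so their p-values are not independent of the choice. The cause of the changes below was not tested.

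Sign changed for tests near 0. The HY33 step of Ah01g112000 from 24 h to 48 h was -0.31 with TPM scaling, where it passed, and -0.22, -0.21 and -0.22 with total counts and limma with pseudocounts 1 and 0.1. The 48 h cultivar difference of Ah20g003700 was -0.12 with TPM scaling and -0.01 under those 3 settings, and its HY9115 step from 12 h to 48 h was -0.14 with TPM scaling, -0.12, -0.11 and -0.12 under those 3, and -0.01 with the stricter filter. The HY33 step of Ah10g182800 from 12 h to 24 h was -0.06 (TPM) and -0.01 (stricter filter), and the interactions from 12 h to 24 h were -0.12 for Ah01g112000 and -0.09 for Ah20g003700 (TPM). In HY33 the step of Ah01g112000 from 12 h to 48 h passed at -0.44 (total counts), -0.59 (TPM), -0.41 (limma, pseudocount 1) and -0.43 (0.1). In HY33, Ah10g182800 passed from 24 h to 48 h at -0.42, -0.51, -0.36 and -0.42, and from 12 h to 48 h at -0.42, -0.57, -0.35 and -0.41, in the same order. TPM scaling also gave passes for Ah20g003700 from 12 h to 24 h in HY33 (-0.29) and at 48 h between cultivars for Ah01g112000 (-0.32) and Ah10g182800 (-0.46). At 24 h between cultivars Ah10g182800 passed without a filter (0.35) and with only the groups compared (0.33). Its interaction from 12 h to 24 h passed at 0.55 with RLE size factors, no filter and DESeq2, and that from 24 h to 48 h at -0.58 (RLE, DESeq2), -0.61 (total counts), -0.56 (no filter) and -0.62 (only the groups compared).

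Passes were lost in HY9115. From 12 h to 24 h Ah01g112000 was at -0.23 (total counts, limma with 1), -0.17 (TPM), -0.27 (FPKM of at least 5), -0.24 (limma with 0.1) and -0.31 (only the groups compared). Ah20g003700 was at -0.26, -0.20, -0.26 and -0.27 with total counts, TPM and limma with 1 and 0.1, and Ah10g182800 at -0.39 (TPM) and -0.41 (limma with 0.1). From 24 h to 48 h Ah20g003700 was at 0.14, 0.06, 0.14 and 0.15 and Ah10g182800 at 0.19, 0.12, 0.16 and 0.18 under those 4 settings, and Ah10g182800 at 0.34 with the stricter filter.

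With 1 library left out, Ah20g003700 ranged from -0.35 to -0.24 over 24 h to 48 h in HY33. In HY9115 the first step ranged from -0.43 to -0.20 for Ah01g112000, -0.45 to -0.25 for Ah20g003700 and -0.65 to -0.34 for Ah10g182800, and the second from 0.26 to 0.47 for Ah20g003700 and 0.34 to 0.48 for Ah10g182800. The interactions of Ah10g182800 ranged from 0.36 to 0.67 (12 h to 24 h), -0.64 to -0.50 (24 h to 48 h) and -0.19 to 0.11 (12 h to 48 h). Ranges that crossed 0 were -0.08 to 0.08 for Ah10g182800 from 12 h to 24 h and -0.05 to 0.10 for Ah01g112000 from 24 h to 48 h in HY33, and -0.02 to 0.08 for Ah20g003700 and -0.26 to 0.05 for Ah10g182800 from 12 h to 48 h in HY9115.

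Replicate numbers did not pair the libraries: same-numbered libraries had a mean correlation of -0.003, 5 of 135 pairs were over 0.1, and 10 of 30 libraries correlated best with their own number. A replicate block left all 42 tests on their side, as with -0.50 for Ah01g112000 at 3 h, and moved counts of called genes by 0.982 to 1 times. The stricter filter, which tests fewer genes, gave 0.5 to 0.687 of the called genes, and 5 and 4 receptor genes lower at 3 h in HY33 and HY9115. In water Ah10g182800 had 39 to 83 counts, which limits its precision there.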

Other observations

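Of the annotated hydroxylase copies, Ah05g029000 on chromosome 5 and Ah15g029000 on chromosome 15 were listed with the same start, end, strand and exonic length, and only the second had counts, 335 in all 30 libraries. Between these chromosomes 580 gene pairs shared start, end and strand, from 26716 to 6248973, of which 575 had equal exonic lengths. In 457 pairs the gene on chromosome 5 had no count and in 111 the gene on chromosome 15 had none. The NCED genes Ah05g031200 and Ah15g031200 were such a pair (3182725 to 3185479). Counts of these copies cannot be assigned to a subgenome from the values used here. None of the 3 genes described lies on either chromosome.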
